A study of Homo sapiens with 18 samples.

Results

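The response of 786-O cells to the hairpin sh45 was measured in 6 of the 18 libraries of the series, 3 with sh45 and 3 with the control hairpin shCtrl of the same experiment, chosen by their sample titles. 786-O is an established line of human clear-cell renal carcinoma that lacks functional VHL, the ubiquitin ligase subunit that marks hypoxia-inducible factors (HIF) for degradation. The cells were grown in DMEM with fetal bovine serum, and RNA was sequenced as paired reads of 150 bases after preparation with a kit that selects polyadenylated RNA and does not mark strand. A second hairpin, sh43, had 3 libraries in the same experiment and shares its control libraries with sh45. The other 9 libraries, of an experiment on USP13, were not used. Titles and characteristics assign sh45 to ZHX2, whereas the treatment protocol names hairpin 45 as directed against USP13, so both genes are given first. The control hairpin is labelled shCtrl only. Nothing in the labels says that the 3 replicates of a group came from separate cultures, and p-values then measure only the spread between these libraries, which may be technical.

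ZHX2 (zinc fingers and homeoboxes 2) is a nuclear protein with zinc fingers and homeodomains that was first described as a transcriptional repressor. In clear-cell renal carcinoma it is known as a protein that VHL normally marks for destruction, that accumulates when VHL is lost, and that binds promoters together with NF-kB. A short hairpin RNA is processed into a small interfering RNA that lowers the mRNA it matches, and hairpins against the same gene can differ in how far they lower it and in which other mRNAs they touch.

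ZHX2 mRNA fell under sh45. Its level was 340.3, 344.2 and 343.9 CPM (gene counts scaled to library size) in the 3 control libraries and 90.8, 82.1 and 79.6 CPM under sh45. The sh45 libraries all lay far below the control libraries, and no values overlapped. The log2 change was -2.03 (SE 0.06, n = 3 per group, edgeR quasi-likelihood F-test, Benjamini-Hochberg adjusted p = 1.17e-20). USP13, the deubiquitinase that the protocol text names, was at 40.3, 39.0 and 44.8 CPM in controls and at 46.1, 49.8 and 43.5 CPM under sh45, and these ranges overlapped. Its log2 difference of 0.17 did not pass the test (edgeR, adjusted p = 0.0852), although it did with the trends on GC content and length removed (0.00113), with upper-quartile scaling (0.0389), without sh45 replicate 3 (0.0428) and without control replicate 3 (0.0344). Under sh43 ZHX2 stood at 38.6, 43.4 and 38.6 CPM, lower than under sh45 in each library, and the log2 difference between the hairpins was 1.06 (edgeR, adjusted p = 5.73e-14).

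Of 13596 genes tested, 7146 differed between sh45 and control at an adjusted p under 0.05, which is 52.6% of those tested. They were 3435 genes that rose (25.3%) and 3711 that fell (27.3%). Most of these changes were small. Of the genes called, 4809 (67.3%) moved by less than 1.5-fold, 985 genes moved by more than 2-fold (7.24% of those tested, 3.52% up and 3.73% down), and 102 rose and 93 fell by more than 4-fold. The median log2 change over all genes was -0.007. Of 538 tested genes on chromosome 10, 253 fell (47%) and 76 rose (14.1%), and several of the falls named below lie on it. In 7776 genes (57.2%) the sh45 and control libraries did not overlap in CPM. Library totals were 12870676 to 14309636 estimated counts in the control and 12889837 to 15603033 under sh45. Mitochondrial ribosomal RNA took 1.25 ± 0.07% of counts in the control and 3.09 ± 0.26% with sh45 (SD, n = 3 each), so its share moved with the hairpin. With these transcripts left out, 7141 genes were called. In these bulk libraries fewer cells that express a gene and less RNA per cell cannot be told apart.

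**Figure D1:**
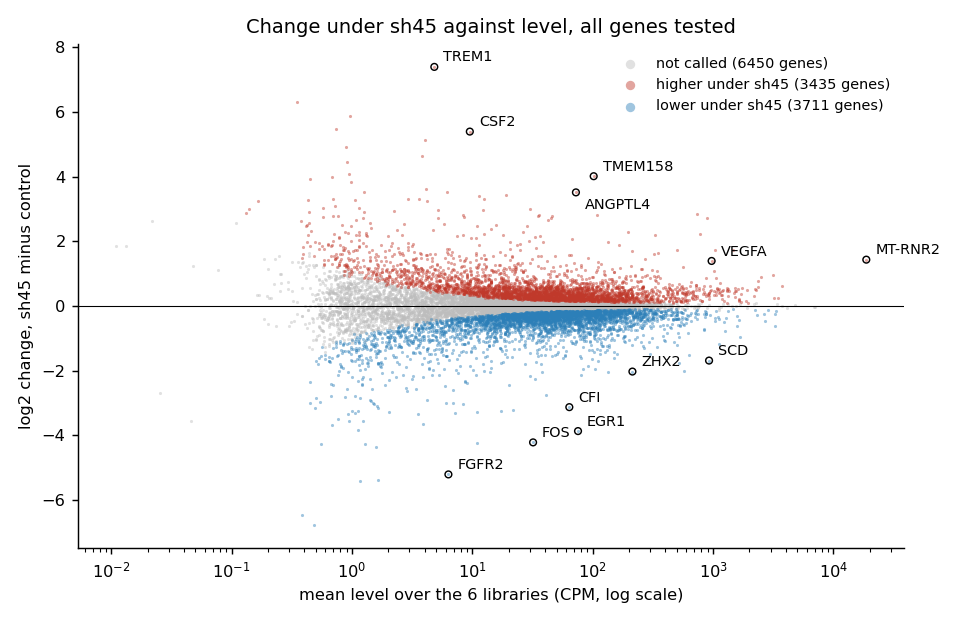
Log2 change between sh45 and control (vertical axis) against the mean level over the 6 libraries in CPM (horizontal axis, log scale), 1 point per gene for the 13596 genes tested. Red points are the 3435 genes that rose and blue points the 3711 that fell, grey points were not called, and circles mark genes named in the text. The largest changes lie at low levels, while VEGFA, MT-RNR2 and SCD moved at high levels.

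Markers of the labelled cell line were present and those of most other cell types were near or at 0. PAX8, a transcription factor of the kidney lineage, lay between 336.8 and 358.9 CPM in controls and between 450.2 and 499.9 CPM under sh45. EPAS1, which encodes HIF-2alpha, lay at 204.6 to 215.1 CPM in controls. CA9, a HIF target often used as a marker of this tumour, was below 1 CPM in all 9 libraries. Of 16 leukocyte markers 2 were tested, CD68 and CSF1R, and both were called higher, with log2 changes of 0.53 and 1.19. The CSF1R call was lost without sh45 replicate 2 (edgeR, adjusted p = 0.0568), without sh45 replicate 3 and without control replicate 2 or 3. The defining leukocyte markers PTPRC, CD3D, CD3E and MS4A1 and the endothelial markers CDH5, FLT1 and EMCN had 0 counts in all 9 libraries. Of 12 endothelial markers 3 were tested and none was called. Of 12 fibroblast and pericyte markers 6 were tested, and ACTA2 (-0.69) and MCAM (-0.67), 2 genes that epithelial lines can also express, fell.

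Promoter sequence of 6 genes is shown here as examples from 3 groups in which most of the genes called moved in 1 direction and which have a known promoter pattern. NF-kB targets are inflammatory genes, of which CXCL1, CXCL3 and TNFAIP3 rose. SREBF2 and MSMO1 belong to cholesterol synthesis, which fell, and CCNB1 is a mitotic gene that rose. Each window is the 250 bases before the gene's start, read 5′ to 3′ on the gene's strand, from RefSeq's table for GRCh38.p14. Capitals mark a match, on either strand, to the NF-kB pattern (GGGA, any base, then TTTCC) in the first 3 sequences, to the sterol regulatory element pattern TCACNCCAC in SREBF2, where N is any base, and to the CCAAT box in MSMO1 and CCNB1.
TNFAIP3, chr6:137867009-137867258, plus strand: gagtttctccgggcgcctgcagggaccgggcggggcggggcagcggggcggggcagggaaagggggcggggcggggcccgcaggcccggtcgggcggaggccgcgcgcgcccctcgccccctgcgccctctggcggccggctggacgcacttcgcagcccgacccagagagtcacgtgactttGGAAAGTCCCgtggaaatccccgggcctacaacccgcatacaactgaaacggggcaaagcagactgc
CXCL1, chr4:73869143-73869392, plus strand: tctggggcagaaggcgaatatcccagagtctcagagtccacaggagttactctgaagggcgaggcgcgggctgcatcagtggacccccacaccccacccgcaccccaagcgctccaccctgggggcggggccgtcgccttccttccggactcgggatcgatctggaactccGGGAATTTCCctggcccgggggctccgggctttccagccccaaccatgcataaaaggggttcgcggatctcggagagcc
CXCL3, chr4:74038690-74038939, minus strand: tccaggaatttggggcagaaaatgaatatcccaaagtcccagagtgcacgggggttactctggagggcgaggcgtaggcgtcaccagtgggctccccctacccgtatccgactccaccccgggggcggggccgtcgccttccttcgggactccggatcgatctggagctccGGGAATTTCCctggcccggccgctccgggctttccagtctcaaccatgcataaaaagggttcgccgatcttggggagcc
SREBF2, chr22:41832855-41833104, plus strand: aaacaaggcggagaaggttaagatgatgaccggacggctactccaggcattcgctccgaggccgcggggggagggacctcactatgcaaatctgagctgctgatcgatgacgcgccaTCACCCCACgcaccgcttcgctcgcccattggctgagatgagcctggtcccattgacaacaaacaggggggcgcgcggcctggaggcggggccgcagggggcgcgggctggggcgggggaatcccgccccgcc
MSMO1, chr4:165327419-165327668, plus strand: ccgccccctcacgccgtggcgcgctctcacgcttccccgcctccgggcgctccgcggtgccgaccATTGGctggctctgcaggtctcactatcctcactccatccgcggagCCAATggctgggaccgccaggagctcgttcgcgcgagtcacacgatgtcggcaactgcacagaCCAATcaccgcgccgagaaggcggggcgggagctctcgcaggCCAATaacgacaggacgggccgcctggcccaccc
CCNB1, chr5:69166900-69167149, plus strand: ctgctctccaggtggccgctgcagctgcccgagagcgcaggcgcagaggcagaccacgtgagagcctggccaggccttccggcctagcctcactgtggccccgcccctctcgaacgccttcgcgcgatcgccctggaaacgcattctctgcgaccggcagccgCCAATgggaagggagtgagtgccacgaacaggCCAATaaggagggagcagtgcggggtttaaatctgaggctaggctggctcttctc

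The NF-kB pattern was present in 7 of 22 promoters of the NF-kB target list that had a sequence (31.8%), beside 63 of 10931 promoters of all tested genes (0.576%). It was present in 22 of 2723 promoters of genes that rose (0.808%). Past 2-fold it was present in 8 of 333 promoters of genes that rose (2.4%) and in 1 of 385 of those that fell (0.26%). The 8 include the list members CXCL1, CXCL3 and IL6, so this share is not independent of the list. The lists were built from genes known to respond to these factors, so a high share in them is part of how they were chosen. CCAAT was present in 19 of 22 mitosis promoters (86.4%) and 16 of 23 cholesterol promoters (69.6%), beside 35.1% of the promoters of tested genes, and in 34.7% of those that rose and 34.1% of those that fell. The sterol pattern was present in 1 of 23 cholesterol promoters and in 0.832% of those of tested genes. A match is a match of letters and does not show that a factor was bound.

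Genes of inflammatory signalling were among those with the largest rises. NF-kB factors are held in the cytoplasm by inhibitor proteins and, once released, switch on cytokines, chemokines and their own inhibitors. Of 26 tested NF-kB targets 17 rose and 4 fell, with a median log2 change of 0.55, against 25.3% and 27.3% of all genes. CSF2, which encodes the growth factor GM-CSF for myeloid cells, was at 0.306, 0.218 and 0.755 CPM in controls and at 17.5, 19.4 and 18.9 CPM under sh45. The chemokine gene CXCL8 (interleukin-8) was at 8.12, 8.99 and 9.54 CPM in controls and at 66.7, 60.3 and 59.7 CPM under sh45. CXCL1 went from 3.14, 3.84 and 3.09 CPM to 20.2, 17.3 and 18.3 CPM. In all 3 genes every sh45 library lay above every control library by a wide margin. Log2 changes were 5.39 (SE 0.23) for CSF2, 2.80 (SE 0.09) for CXCL8 and 2.47 (SE 0.14) for CXCL1 (edgeR, adjusted p = 1.54e-16, 7.44e-20 and 6.35e-14).

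Most other members of the NF-kB list that were called rose by less. IL6, the cytokine interleukin-6, rose with a log2 change of 2.39, from 4.44, 4.57 and 4.67 CPM to 24.3, 25.8 and 21.7 CPM. PTGS2, the inducible cyclooxygenase, rose by 1.57 on the log2 scale. The inhibitor genes NFKBIA and TNFAIP3 each rose by 0.95, and NFKBIE by 0.53. CXCL3 rose by 1.04, but from levels near 1 CPM, and CXCL1, CXCL2 and CXCL3 are close copies whose reads the quantification may have split. The 4 members that fell were TNFAIP2 (-0.36), BIRC2 (-0.33), CSF1 (-0.33) and SOD2 (-0.29). Of the NF-kB subunits, RELB (0.75) and NFKB2 (0.51) rose, while RELA (0.11), NFKB1 (-0.14) and REL (-0.14) did not pass the test. Under sh43, against the same control libraries, 17 members of the list rose and 5 fell, where 33.5% of all tested genes rose and 35.2% fell. Between the hairpins CSF2 was higher under sh45 by 0.56 (edgeR, adjusted p = 0.00048), while CXCL8 differed by 0.14 (adjusted p = 0.0668) and CXCL1 by 0.20 (adjusted p = 0.11).

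Outside the lists, the largest rise by fitted change was that of TREM1, an amplifying receptor of myeloid cells, which had 2 counts over the 3 control libraries and 415 under sh45. The ratio of these sums, scaled for depth, was 198.7, with an exact 95% interval of 54.7 to 1646 that covers counting error only. TMEM158, a membrane protein gene known to be induced by RAS, went from 12.9, 12.8 and 9.95 CPM to 187.0, 186.5 and 201.3 CPM (log2 change 4.01, SE 0.09, edgeR adjusted p = 7.85e-23). HMGA1, a chromatin architectural protein abundant in embryonic and tumour cells, went from 2.37, 3.7 and 3.5 CPM to 33.5, 32.7 and 38.2 CPM (3.44). PTX3, a secreted pattern-recognition protein, went from 2.07, 1.52 and 2.26 CPM to 22.5, 20.4 and 19.4 CPM (3.40). IGF2, an insulin-like growth factor, rose by 5.13 on the log2 scale, ASB2, a ubiquitin ligase subunit, by 4.62, and LMO1, a LIM-domain transcription cofactor, by 3.51. The remaining genes among the 14 largest rises were ATP6V0D2, N4BP3, SIRPB1 and the long non-coding RNAs SLCO4A1-AS1 and MIR3142HG. Libraries lack strand information, so reads of SLCO4A1-AS1 and of the gene it overlaps cannot be told apart.

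**Figure D2:**
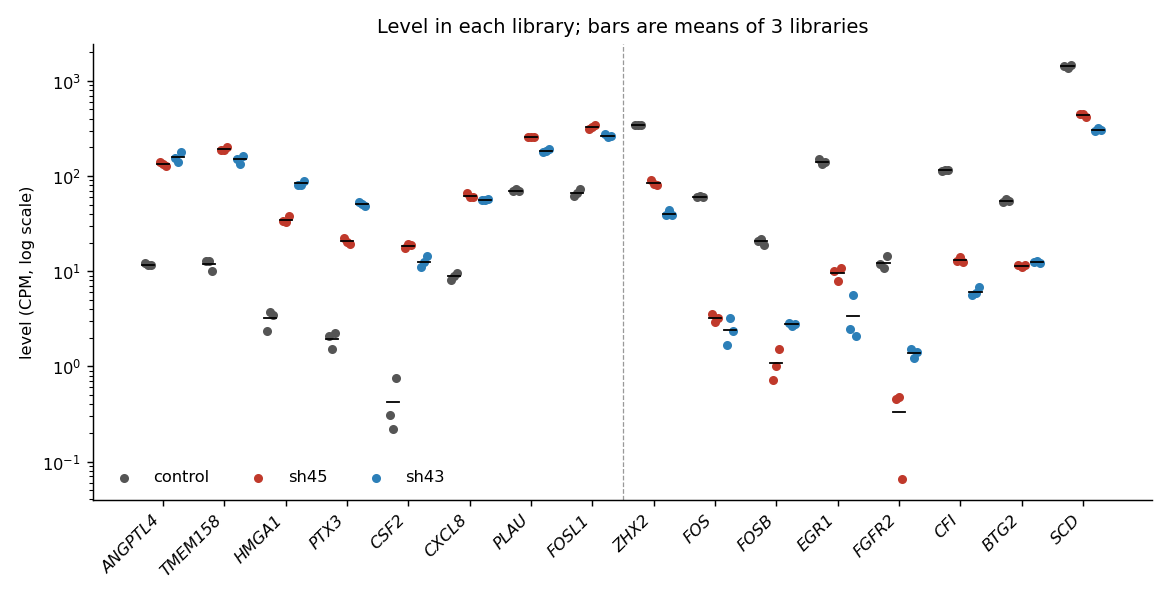
Level in CPM (vertical axis, log scale) of 16 genes in each of the 9 libraries of the experiment, with black, red and blue points for control, sh45 and sh43 and bars for the mean of 3 libraries. The 8 genes left of the dashed line rose under sh45 and the 8 on the right fell, and in none do the sh45 and control libraries overlap, as for ANGPTL4 with 11.5 to 12.2 CPM in controls and 128.3 to 138.6 CPM under sh45.

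Immediate early genes and genes of the ERK feedback loop held some of the largest falls and rises. FOS, FOSB and EGR1 encode transcription factors whose mRNAs appear within minutes of growth factor signalling, while DUSP, SPRY and ETV4/ETV5 genes are slower readouts of sustained ERK activity. FOS was at 60.6, 61.7 and 59.5 CPM in controls and at 3.53, 2.92 and 3.21 CPM under sh45. EGR1 was at 149.4, 133.9 and 140.3 CPM in controls and at 10.0, 7.88 and 10.9 CPM under sh45. In both genes all sh45 values lay far below the controls. Log2 changes were -4.22 (SE 0.12) for FOS, -3.87 (SE 0.13) for EGR1 and -4.23 (SE 0.19) for FOSB (edgeR, adjusted p = 3.21e-20, 3.19e-19 and 3.09e-16). ATF3 (-0.72), FOSL2 (-0.52), JUNB (-0.48), MYC (-0.40), IER2 (-0.33) and KLF6 (-0.17) fell less, and JUN (0.04) did not pass the test.

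FOSL1, which encodes the AP-1 subunit FRA-1, rose where FOS fell. Its level was 61.9, 65.5 and 73.3 CPM in controls and 312.7, 330.4 and 339.0 CPM under sh45 (log2 change 2.29, SE 0.06, edgeR adjusted p = 1.1e-21). ETV4 (2.98), SPRY4 (1.93), DUSP6 (1.66), PHLDA1 (1.46), DUSP5 (1.23) and ETV5 (1.08) also rose. In all, 12 of the 27 tested members of this single list rose and 9 fell (25.3% and 27.3% over all genes), and the median was 0.04. An AP-1 pattern (TGANTCA) was present in 27 of 333 promoters of genes that rose by more than 2-fold (8.11%) and in 4.42% of those that fell by more than 2-fold. Without the 2-fold limit it was present in 4.15% of promoters of genes that rose and in 4.13% of those that fell. Its share was 3.85% over promoters of tested genes and 6.6% over all 27305 promoters, tested or not. Under sh43 FOS changed by -4.63 and EGR1 by -5.32, and the hairpins differed in EGR1 (1.45, edgeR adjusted p = 5.71e-07), while for FOS the difference of 0.40 did not pass the test (adjusted p = 0.0758).

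The plasminogen activators, the urokinase receptor and the starter of coagulation rose. PLAU (urokinase) and PLAT (tissue plasminogen activator) convert plasminogen to plasmin, PLAUR is the urokinase receptor, and F3 (tissue factor) starts the extrinsic clotting pathway. PLAU was at 69.1, 72.2 and 69.3 CPM in controls and at 257.4, 259.6 and 255.8 CPM under sh45. F3 went from 11.7, 10.1 and 14.1 CPM to 81.1, 80.8 and 73.7 CPM. Every sh45 library lay above every control library in both genes. The log2 changes were 1.88 for PLAU, 2.71 for F3, 3.24 for PLAT and 1.56 for PLAUR (edgeR, largest adjusted p = 7.43e-11, for PLAT). TIMP1, a metalloproteinase inhibitor, rose too, from 149.3, 168.9 and 153.9 CPM to 350.0, 326.3 and 361.2 CPM (adjusted p = 1.57e-15).

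Of the 20 tested genes of this list 9 rose and 5 fell, beside 25.3% and 27.3% of all genes. MMP7 (matrilysin, -1.99) and ADAM9 (-0.97) were among those that fell, and MMP2 (0.07) and MMP14 (-0.09) did not pass the test. The median of 0.83 rested on a few genes at low levels and was 0.32 without sh45 replicate 3 and 0.49 without control replicate 1, with the same counts of genes that rose and fell. F3 and TIMP1 were also higher under sh45 than under sh43 (by 0.82 and 0.89, edgeR, largest adjusted p = 5.2e-10), while for PLAUR the difference of 0.02 did not pass the test (adjusted p = 0.834).

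HIF target genes split. In cells without VHL the HIF-2alpha protein escapes degradation, and its targets in renal carcinoma include VEGFA, CCND1 and lipid-handling genes. ANGPTL4, a secreted inhibitor of lipoprotein lipase, was at 12.2, 11.5 and 11.5 CPM in controls and at 138.6, 132.8 and 128.3 CPM under sh45 (log2 change 3.51, SE 0.09, edgeR adjusted p = 6.48e-22). CA12, a membrane carbonic anhydrase, rose from 688.3, 635.5 and 693.4 CPM to 2273, 2237 and 2204 CPM (1.73), and VEGFA, the vascular growth factor, from 526.4, 530.8 and 556.5 CPM to 1474, 1389 and 1352 CPM (1.39). In each of these genes the sh45 libraries formed a tight group well above the control. HILPDA (1.55), P4HA2 (1.18), LOX (0.80), ERO1A (0.70) and CCND1 (0.50) also rose. CITED2 (-1.13), a feedback inhibitor of HIF, PLIN2 (-0.40), a lipid droplet coat protein, and the HIF hydroxylase EGLN1 (-0.26) fell.

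Over the list without glycolytic genes 13 of 28 tested members rose and 7 fell, with a median of 0.14, beside 25.3% and 27.3% of all genes. Without the 4 members on chromosome 10 the counts were 12 and 5 of 24 and the median 0.52. Under sh43 9 rose and 10 fell, with a median of -0.04, shares near the 33.5% and 35.2% of all genes. Compared directly, 20 of the 28 were higher under sh45 than under sh43 and 5 lower, where 34.2% of all tested genes were higher and 32.7% lower. VEGFA was higher under sh45 than under sh43 by 1.21, HILPDA by 1.83, CA12 by 0.97 and NDRG1 by 0.85 (edgeR, adjusted p = 7.06e-19, 3.83e-16, 6.64e-17 and 6.93e-16). ANGPTL4 was lower under sh45 than under sh43 by a log2 difference of -0.25 (adjusted p = 0.00167). Transcripts of HIF subunits and of VHL also moved: EPAS1 rose by 0.40, HIF1A by 0.47 and VHL by 0.42. ARNT, the dimer partner of the EPAS1 and HIF1A proteins, was called lower at -0.20. The ARNT call was lost with DESeq2 (adjusted p = 0.0578) and with the GC and length trends removed (edgeR, 0.229). It was also lost without sh45 replicate 3, control replicate 1 or control replicate 3.

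Glycolysis also split. SLC2A3, the high-affinity glucose transporter GLUT3, rose by 1.36, PFKFB4 by 0.98, ENO2 by 0.80 and GAPDH by 0.62. The phosphofructokinase activator PFKFB3 was at 305.3, 307.7 and 311.1 CPM in controls and at 159.0, 156.8 and 156.4 CPM under sh45 (log2 change -0.97, SE 0.04, edgeR adjusted p = 2.56e-16). PGAM1, a phosphoglycerate mutase, fell from 656.6, 678.9 and 644.6 CPM to 359.6, 382.5 and 362.9 CPM (-0.84). Of 24 members 10 rose, 4 fell and 10 were not called, beside 25.3% and 27.3% of all genes. PFKFB3 and PGAM1 lie on chromosome 10, and of the 20 members elsewhere 9 rose and 1 fell. PFKFB3 and PGAM1 were also lower under sh45 than under sh43, by -1.12 and -1.18 (edgeR, adjusted p = 1.05e-17 and 1.34e-18).

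Most genes of cholesterol and fatty acid synthesis fell. SREBP transcription factors, released from the endoplasmic reticulum when sterols run low, drive the mevalonate pathway and fatty acid desaturases. Of 31 members 25 fell, 1 rose and 5 were not called, where 27.3% of all genes fell and 25.3% rose. The median log2 change was -0.55, against -0.007 over all genes. SCD and IDI1 lie on chromosome 10, and without them 23 of 29 fell and 1 rose, with a median of -0.52. SCD, the stearoyl-CoA desaturase, was at 1413, 1349 and 1475 CPM in controls and at 450.1, 446.5 and 418.3 CPM under sh45. LSS, which closes the sterol ring, went from 130.7, 141.8 and 129.7 CPM to 58.4, 56.4 and 58.4 CPM. DHCR7, which acts at the end of cholesterol synthesis, went from 125.6, 123.2 and 116.8 CPM to 74.5, 74.8 and 78.2 CPM. In these genes every sh45 value lay well below the lowest control value. Log2 changes were -1.69 (SE 0.04) for SCD, -1.21 (SE 0.06) for LSS and -0.68 (SE 0.06) for DHCR7 (edgeR, adjusted p = 3.86e-21, 1.31e-15 and 1.53e-10).

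The fall ran along the pathway, from the early step of HMGCS1 (-0.52) through IDI1 (-0.71), FDFT1 (-0.55) and SQLE (-0.31) to DHCR7, and on to FASN (-0.47) and FADS2 (-1.07) in fatty acid synthesis. The regulators SREBF2 (-0.63) and SREBF1 (-0.59) fell too. SREBF2 was at 436.5, 439.1 and 434.3 CPM in controls and at 290.4, 274.6 and 282.5 CPM under sh45. MVD (-0.16), EBP (-0.10), TM7SF2 (-0.01), PMVK (0.02) and MVK (0.11) did not pass the test, and INSIG1, which retains SREBP in the endoplasmic reticulum, was called higher at 0.16, a call lost without sh45 replicate 2 (edgeR, adjusted p = 0.0606).

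The hairpins differed in this list. Under sh43, against the same control libraries, 15 members fell and 7 rose, with a median of -0.07, beside 35.2% and 33.5% of all genes. In the direct test 22 of 31 were lower under sh45 than under sh43 and 6 were higher, beside 32.7% and 34.2% of all tested genes. IDI1 was at 54.9, 60.1 and 52.1 CPM under sh43, near its control level of 51.5 to 56.1 CPM, and at 30.6 to 35.4 CPM under sh45 (sh45 minus sh43 -0.76, edgeR adjusted p = 1.25e-09). LSS (-0.79) and DHCR7 (-0.48) were also lower under sh45 than under sh43. SCD (0.52) and SREBF2 (0.45) were higher under sh45 than under sh43, and FADS2 differed by -0.02, which did not pass the test (adjusted p = 0.723).

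**Figure D3:**
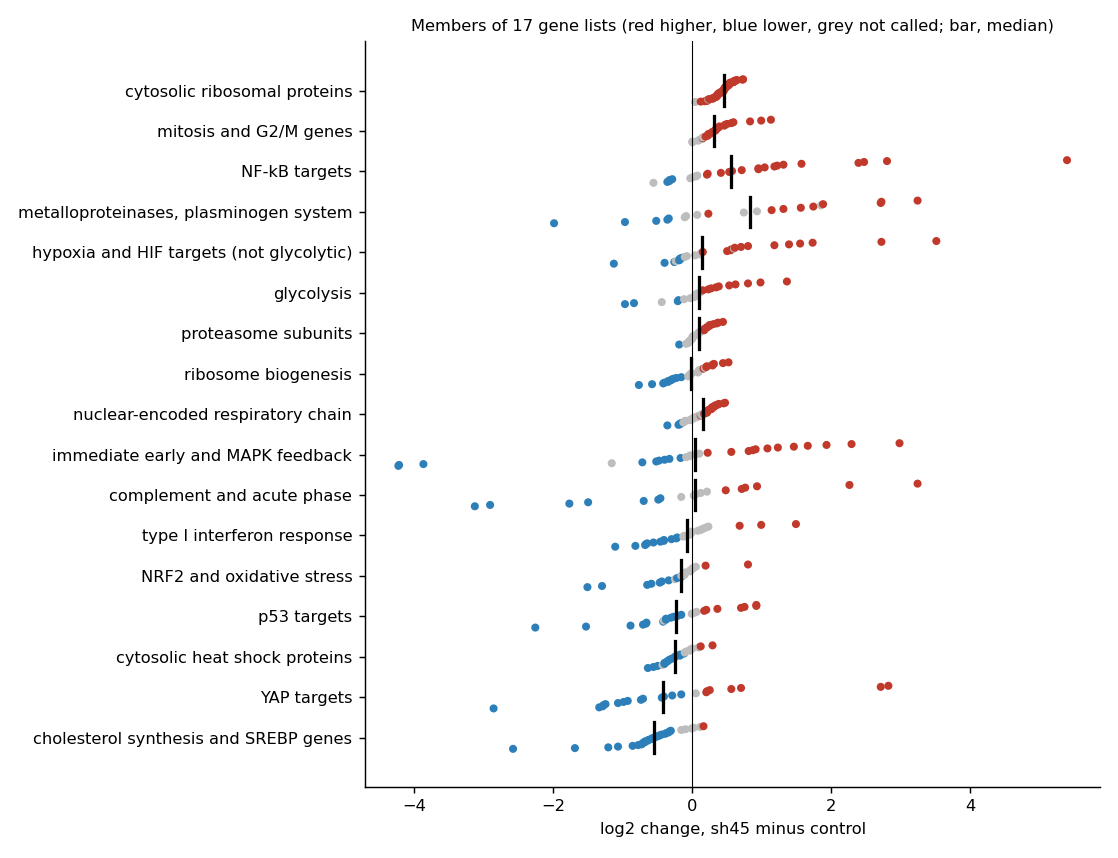
Log2 change between sh45 and control (horizontal axis) for the tested members of 17 gene lists (rows), 1 point per gene, red for genes that rose, blue for genes that fell and grey for genes not called, with a black bar at the list's median. Cytosolic ribosomal proteins (median 0.45) and mitosis genes (0.31) hold no blue points, and the cholesterol list (-0.55) holds a single red point.

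Cytosolic ribosomal protein genes rose as a block. Each of these proteins is part of every cytosolic ribosome, and their mRNAs are short, abundant and translated under shared control. Of 65 tested genes 63 rose and none fell, beside 25.3% and 27.3% of all genes. The median log2 change of the list was 0.45, with a range of 0.04 to 0.73. RPL28 was at 490.2, 527.8 and 470.3 CPM in controls and at 766.5, 836.1 and 869.2 CPM under sh45. RPS18 was at 839.0, 925.3 and 832.4 CPM in controls and at 1328, 1473 and 1482 CPM under sh45. Neither gene's groups overlapped (log2 changes 0.73 and 0.72, SE 0.05 each, edgeR adjusted p = 8.24e-13 and 1.04e-12). RPS29 (0.23) and RPL10A (0.04) were not called. Under sh43 26 of the 65 rose and 11 fell, with a median of 0.04, beside 33.5% and 35.2% of all genes. In the direct test 58 were higher under sh45 than under sh43 and none lower, beside 34.2% and 32.7% of all genes. Among 15 elongation and initiation factors and other mRNAs of the same translational class, a list chosen after values were seen, 10 rose and none fell, led by EEF1D (0.57) and RACK1 (0.39).

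Calls over all genes also varied with the length and GC content of the transcript. In the quintile of tested genes with the shortest transcripts 38.5% rose and 12.6% fell, while in the longest quintile 18.8% rose and 36.1% fell. In the quintile with the lowest GC content 15.6% rose and 33.7% fell, and in the highest 37.7% rose and 18.4% fell. With smooth trends on length and GC content removed, 46 ribosomal protein genes were called higher and 2 lower, the median was 0.15, and RPL35 was not called (edgeR, adjusted p = 0.688). Over all genes that fit called 7248, of which 5984 were among the 7146. Many ribosomal protein genes have processed pseudogenes of near-identical sequence, among which reads may have been divided.

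**Figure D4:**
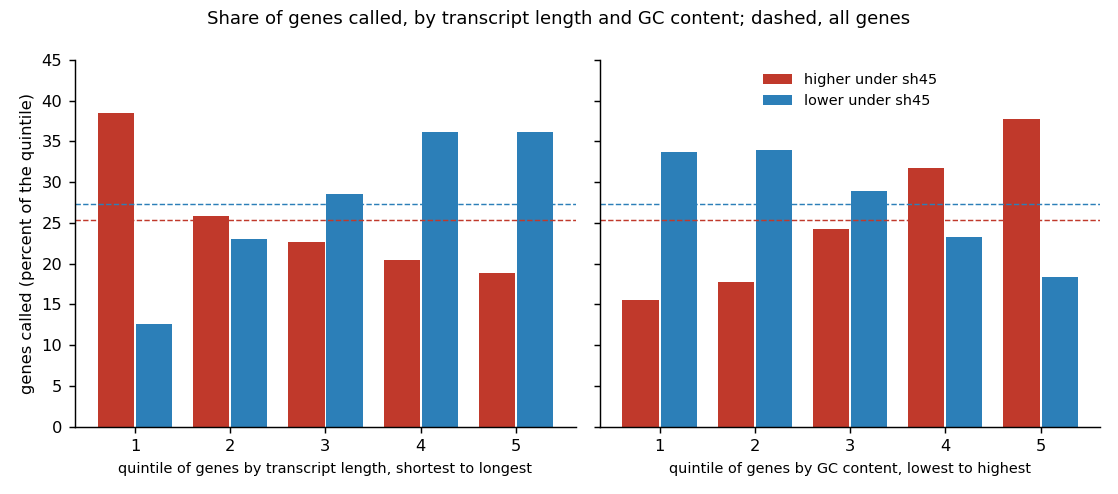
Share of genes that rose (red) or fell (blue) under sh45, in percent of each quintile (vertical axis), for quintiles of the tested genes by transcript length (left) and by GC content of the transcript (right), with dashed lines at the share over all genes (25.3% and 27.3%). The red bars drop from 38.5% to 18.8% with length and climb from 15.6% to 37.7% with GC content.

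Nuclear genes of mitochondrial translation and respiration moved little. Of 44 mitochondrial ribosomal proteins 18 rose and 8 fell (median 0.05), and of 40 respiratory chain genes 21 rose and 5 fell (median 0.15). The shares over all genes were 25.3% up and 27.3% down. In both lists the counts turned when the trends on length and GC content were removed, to 6 up and 14 down and to 6 up and 12 down. The mitochondrial ribosomal RNAs rose: MT-RNR2 was at 9597, 10243 and 10654 CPM in controls and at 25050, 27205 and 29696 CPM under sh45 (log2 change 1.43, SE 0.05, edgeR adjusted p = 2.07e-19), and MT-RNR1 rose by 0.95. None of the 13 mRNAs encoded by the mitochondrial genome was found among the 27063 named genes, before any filter on counts, so none could be tested.

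Most mitotic genes rose, and more genes of G1 control fell than rose. Of 28 mitosis and G2/M genes 22 rose and none fell, with a median of 0.31. PTTG1 (securin) was at 41.8, 44.5 and 49.5 CPM in controls and at 98.5, 104.5 and 95.6 CPM under sh45. AURKB, a kinase of chromosome segregation, was at 28.8, 31.2 and 27.7 CPM in controls and at 55.2, 61.7 and 57.8 CPM under sh45. In both genes every sh45 library lay above every control library (log2 changes 1.13 and 0.99, edgeR adjusted p = 2.73e-13 and 4.68e-12). UBE2C (0.83), MAD2L1 (0.59), BUB1B (0.56), MKI67 (0.38) and CCNB1 (0.28) followed. Of 31 replication genes 8 rose, such as POLE (0.55) and CDT1 (0.44), and 8 fell, such as MCM6 (-0.50), shares close to the 25.3% and 27.3% of all genes.

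In G1 control, CDK6 fell from 168.4, 124.3 and 170.3 CPM to 83.7, 73.1 and 69.5 CPM (log2 change -1.03, SE 0.09, edgeR adjusted p = 1.22e-10), and the inhibitors CDKN1C (-0.67), CDKN1A (-0.42) and CDKN1B (-0.23) fell as well. CCND1, cyclin D1, rose from 996.0, 982.4 and 1009 CPM to 1460, 1393 and 1359 CPM (0.50). In all 9 of 14 tested members fell and 2 rose, beside 27.3% and 25.3% of all genes. One of the genes that rose, CDK2 (0.19), lost its call with DESeq2 and with the GC and length trends removed.

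Among p53 targets 13 of 24 fell and 7 rose, beside 27.3% and 25.3% of all genes. BTG2, an antiproliferative gene, was at 53.5, 57.9 and 54.0 CPM in controls and at 11.7, 11.1 and 11.6 CPM under sh45 (log2 change -2.26, SE 0.09, edgeR adjusted p = 7.45e-18). TP53INP1 (-1.53), MDM2 (-0.38) and CDKN1A (-0.42) fell too. GDF15, a stress cytokine, and TNFRSF10B, a death receptor, each rose by 0.92.

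Targets of YAP, the coactivator of the Hippo pathway that responds to cell density and tension, also divided. Of 22 members 14 fell and 7 rose, with a median of -0.42, and of the 20 not on chromosome 10, where ANKRD1 lies, 12 fell and 7 rose. CCN1 went from 456.3, 505.9 and 491.3 CPM in controls to 198.9, 193.2 and 205.4 CPM under sh45. CCN2 went from 54.7, 56.3 and 65.1 CPM to 24.5, 22.5 and 22.6 CPM. The commonly used targets CCN1 (-1.28), CCN2 (-1.34), AMOTL2 (-1.29) and ANKRD1 (-1.25) all fell, with every sh45 library below every control library (edgeR, largest adjusted p = 0.000104, for ANKRD1). Against this, NT5E (CD73, an ectoenzyme that makes adenosine) rose by 2.82 and F3 by 2.71. Of 25 tested matrix and mesenchymal genes 9 rose and 8 fell, with a median of -0.02, beside 25.3% and 27.3% of all genes. The most changed were TNC (tenascin C) at 8.79 ± 1.81 CPM in controls and 48.4 ± 2.65 CPM under sh45 (SD, n = 3 each, log2 change 2.46), and THBS1 (thrombospondin 1) at 216.5, 212.8 and 226.4 CPM in controls and at 86.9, 76.8 and 78.8 CPM under sh45 (-1.43).

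Clear-cell carcinoma is thought to arise from the proximal tubule, and more genes of a mixed epithelial and tubule list fell than rose. The proximal tubule genes LRP2, SLC22A6 and SLC6A19 had 0 counts in all 9 libraries. HAVCR1 (kidney injury molecule 1) was at 133.8, 120.3 and 134.1 CPM in controls and at 31.5, 26.7 and 29 CPM under sh45 (log2 change -2.15, SE 0.07, edgeR adjusted p = 2.63e-19). The kidney cadherins CDH6 (-1.48) and CDH16 (-1.05), the transcription factor PAX2 (-0.63) and osteopontin (SPP1, -0.97) fell, while PAX8 (0.46), WT1 (1.21), KRT18 (0.52) and CLDN1 (0.89) rose. Of 26 tested epithelial and tubule genes 12 fell and 7 rose, beside 27.3% and 25.3% of all genes. Their median was -0.15, and changes ran from -2.15 to 2.27. Without PAX2 and CUBN, which lie on chromosome 10, 11 of 24 fell and 7 rose. ESPN (espin), a bundler of the actin core of microvilli, was at 12.9, 13.1 and 13 CPM in controls and at 1.11, 1.73 and 1.11 CPM under sh45 (-3.32). MYO7A, an unconventional myosin, had 96 counts over the control libraries and 2 under sh45, a ratio of 50.1 (exact 95% interval 13.5 to 419.8). Its relative MYO7B had at most 3 counts in any library and was not tested. Of 11 tested genes of a microvillus list that holds MYO7A and was made after values were seen, 8 fell and 2 rose.

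Other genes among the 14 largest falls were FGFR2, the keratinocyte growth factor receptor on chromosome 10, with a log2 change of -5.21, DDC, the aromatic amino acid decarboxylase, with -4.37, and ACSM2A, UGT2A3, LRG1, FLRT3, DEFB1 and ZFHX4-AS1. FGFR2 was at 11.9, 10.8 and 14.3 CPM in controls and at 0.458, 0.473 and 0.0655 CPM under sh45. Among complement and acute phase genes, CFI, the protease that inactivates C3b, went from 112.2, 115.0 and 116.5 CPM to 12.8, 14 and 12.4 CPM (-3.13, SE 0.08, edgeR adjusted p = 6.11e-22), and LBP, the lipopolysaccharide-binding protein, fell by 2.91 on the log2 scale. C3 (0.48) and C1R (0.71) rose. C4A (-1.50) and C4B (-1.77) are near-identical copies whose reads may have been divided. In all 6 of 18 tested genes of this list rose and 7 fell, beside 25.3% and 27.3% of all genes. Past 2-fold 2 rose and 4 fell, and changes over the list ran from -3.13 to 3.24.

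Several groups moved little or in the other direction from what they did under sh43. Of 23 cytosolic heat shock proteins and chaperonin subunits, which fold proteins and prevent aggregation, 14 fell and 2 rose under sh45 (median -0.25). Under sh43 21 rose and 2 fell (median 0.71). The shares over all genes were 27.3% down and 25.3% up under sh45, and 33.5% up and 35.2% down under sh43. HSP90AA1 was at 617.5, 641.2 and 642.8 CPM in controls, at 437.0, 461.1 and 442.6 CPM under sh45 and at 1309, 1264 and 1286 CPM under sh43 (sh45 minus sh43 -1.53, SE 0.04, edgeR adjusted p = 2.86e-21). The 3 groups were far apart in this gene, with the control between the hairpins. In the direct test 21 of the 23 were lower under sh45 than under sh43 and 1 was higher, beside 32.7% and 34.2% of all genes. HSPA1A (-0.64 against control) and HSPA1B are near-identical copies.

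Proteasome subunits and ribosome biogenesis factors rose under sh43 and moved little under sh45. Of 31 proteasome genes 12 rose and 1 fell under sh45 (median 0.09), and the counts were 7 and 4 with the length and GC trends removed. The shares over all genes were 25.3% up and 27.3% down under sh45, and 33.5% up and 35.2% down under sh43. Under sh43 all 31 rose (median 0.77), and 30 of 31 were lower under sh45 than under sh43. Of 30 ribosome biogenesis genes 8 rose, led by FBL (0.52), and 11 fell, led by NOLC1 (-0.77), under sh45. The rises were near the share over all genes. Of the 27 not on chromosome 10, where NOLC1 lies, 8 rose and 8 fell. Under sh43 29 of the 30 rose and none fell. NOLC1 was at 132.1, 139.6 and 139.6 CPM in controls, at 80.4, 79.4 and 81.7 CPM under sh45 and at 261.7, 263.1 and 261.7 CPM under sh43. In the direct test 27 of the 30 were lower under sh45 and none higher, beside 32.7% and 34.2% of all genes.

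NRF2 target genes, which protect against oxidants, gave 9 falls and 2 rises among 21 under sh45, beside 27.3% and 25.3% of all genes. AKR1C3 (-1.51), on chromosome 10, and the factor's own gene NFE2L2 (-0.65) fell, while OSGIN1 rose by 0.80. The other gene called higher, SLC7A11 (0.19, edgeR adjusted p = 0.048), lost the call in several alternatives. Under sh43 15 rose and 4 fell, beside 33.5% and 35.2% of all genes. In the direct test 20 of 21 were lower under sh45 than under sh43, beside 32.7% of all genes. The ATF4 and unfolded protein response list gave 12 rises and 9 falls among 28 under sh45, none past 2-fold, and 9 of each with the GC and length trends removed, beside 25.3% and 27.3% of all genes.

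**Figure D5:**
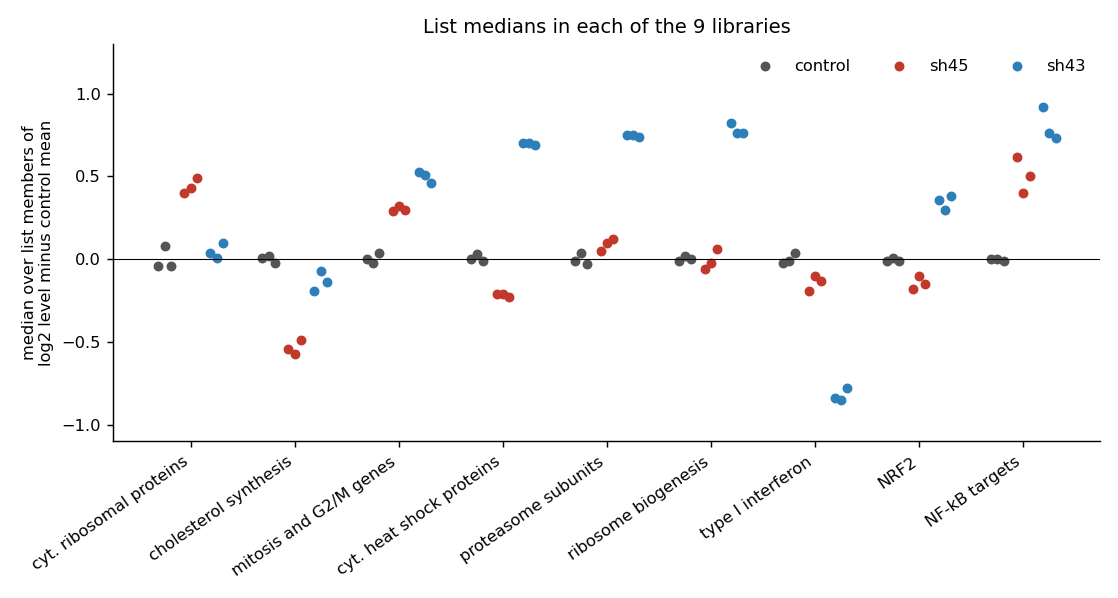
Median over list members of the log2 level minus the control mean (vertical axis), for 9 gene lists in each of the 9 libraries, with black, red and blue points for control, sh45 and sh43. Replicates of a group lie close together, and for heat shock proteins the sh45 points lie at -0.21 to -0.23 and the sh43 points at 0.69 to 0.70.

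The interferon response set the hairpins apart in the opposite sense. These genes are induced by signalling downstream of the interferon receptor. Under sh45 12 of 28 fell and 3 rose (median -0.08), beside 27.3% and 25.3% of all genes. Without the 4 members on chromosome 10, IFIT1, IFIT2, IFIT3 and IFIT5, 8 of 24 fell and 3 rose (median -0.03). IFIT1, an antiviral RNA-binding protein, went from 55.4, 49.5 and 59 CPM in controls to 31.1, 32 and 29.7 CPM under sh45 (log2 change -0.82, SE 0.08, edgeR adjusted p = 2.07e-09), and stood at 21.9, 22.4 and 25.5 CPM under sh43. IFIT3 (-0.68) and MX1 (-0.67) fell too, while IFI27 (1.49), ISG20 (0.99) and IFI6 (0.68) rose. Under sh43 24 of 28 fell and none rose (median -0.89), beside 35.2% and 33.5% of all genes. In the direct test 22 of 28 were higher under sh45 than under sh43 and 1 lower, beside 34.2% and 32.7%.

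Over all genes the direct test between the hairpins called 9089 of 13596 (66.9%), 4645 higher and 4444 lower under sh45. The largest differences with sh45 higher included IFITM1 (5.21), an interferon-induced membrane protein, and SEMA5B (3.79), a semaphorin. SEMA5B was at 118.4, 124.5 and 119.6 CPM in controls, at 41.3, 36.6 and 41.6 CPM under sh45 and at 2.67, 2.81 and 3.18 CPM under sh43, so the sh45 libraries lay between the other groups. PIANP, MYH13, LINC01781, PRR36 and CFB, also among the 8 largest, were not called between sh45 and control, and CKB was called lower at -0.51, a call lost with DESeq2. In the other direction ITGAD had 0 counts in the sh45 libraries and 131 under sh43, so that it was at least 44.8-fold lower under sh45 when 3 counts over the group are taken as the floor. SERPINB2 had 1 count under sh45 and 98 under sh43, a ratio of 100.6 (exact 95% interval 17.6 to 4015). MMP1, the interstitial collagenase, was at 0.612, 0.725 and 0.206 CPM in controls, 1.70, 1.58 and 1.83 CPM under sh45 and 23.1, 18.3 and 22.3 CPM under sh43. KLRC1, CPA4, KCNQ3, MARCHF4 and ANKRD1 made up the rest of the 8.

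By abundance, in deposited TPM, which is scaled for transcript length, the largest gains besides mitochondrial ribosomal RNA were in MT2A, LGALS1, RPS18 and RPL35 and the largest losses in FTL, TMSB4X, SPP1, HSPB1, PSAP and ACTB. MT2A, a metallothionein that binds zinc and copper, was at 434.9, 521.2 and 479.9 CPM in controls and at 1551, 1559 and 1646 CPM under sh45 (log2 change 1.73, SE 0.05, edgeR adjusted p = 6.95e-20). MT1X (2.78) and MT1E (0.94) rose too. LGALS1 (galectin 1) rose by 1.07, from 644.6, 700.6 and 608.3 CPM to 1314, 1323 and 1463 CPM. PSAP, the precursor of the lysosomal saposins, on chromosome 10, fell from 3899, 4165 and 3892 CPM to 2686, 2590 and 2455 CPM (-0.63). Of 24 lysosomal genes, listed after values were seen, 15 fell, among them NEU1 (-0.89) and NPC1 (-0.69), and 4 rose, led by CTSB (0.49). The shares over all genes were 27.3% down and 25.3% up.

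Of the paralogs of the target, ZHX3 rose from 68.8, 60.2 and 64.6 CPM to 97.2, 95.1 and 90.8 CPM (log2 change 0.55, SE 0.06, edgeR adjusted p = 4.24e-08), with no overlap between groups. Under sh43 ZHX3 was at 64.4, 68.8 and 64.5 CPM, and the hairpins differed by 0.52 (adjusted p = 5.41e-08). ZHX1 was called lower at -0.22 (adjusted p = 0.0307), and this call was lost with DESeq2, with upper-quartile scaling (0.0571), with effective lengths as offsets (0.0765), with the GC and length trends removed (0.436) and without sh45 replicate 2 (0.0997), sh45 replicate 3 (0.186) or control replicate 3 (0.161). USP5, the paralog of USP13, was not called (-0.07, adjusted p = 0.287). The sequence of sh45 was not used here, and matches of its seed to other mRNAs were not analysed.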

How the data were processed

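RNA of 6 libraries of 786-O cells, 3 with hairpin sh45 and 3 with its control hairpin, was compared, in a fit that also held 3 libraries with hairpin sh43. Groups and replicate numbers came from the titles. The deposited files give, per the file headers, each RefSeq transcript's length, effective length, TPM and estimated count in 1 library. Software listed in the submitters' processing notes, with no role given, is Salmon 0.11.3, STAR 2.5.2b, DESeq2 1.14.1 and cutadapt 1.12, and the build is hg19. TPM, which the authors' quantification scales for transcript length and depth, served only to rank genes by abundance.

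Estimated counts as deposited were rounded and summed to genes: of 60422 transcripts per file, 1342 repeated an earlier accession, 59301 had a name in RefSeq's gene table, 683 in GENCODE release 29, and 438 had none (0.0856% to 0.1084% of counts, left out). Of 27063 genes, 13596 passed filterByExpr of edgeR 4.0.16 (R 4.3.3). TMM factors scaled the library sizes. The 9 libraries were fitted with 1 mean per group, edgeR's quasi-likelihood F-test was applied to each contrast with Benjamini-Hochberg adjustment over all genes tested, and genes with an adjusted p under 0.05 were called. The code was tested on simulated data. Totals of 12733710 to 15613947 counts per library set the precision, and genes with few counts are given with counting intervals. Replicate pairs differed by a chi-square of 2.346 to 6.46 per degree of freedom, so none was a copy.

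Alternatives were DESeq2 1.42.0, the 2 groups alone, upper-quartile scaling, no filter, a replicate block, effective lengths as offsets, trends on GC content and length removed, no mitochondrial ribosomal RNA, leaving out each library and, chosen after seeing the data, list counts without members on chromosome 10. Genes were named by rule: the 14 largest called rises and falls with a mean of at least 2 CPM in either group and no overlap, the 6 largest changes each way in TPM, the 8 largest differences each way between hairpins, all ZHX and USP13 relatives, and up to 3 called genes in each direction per list. Other members were named after their values were seen, and some genes that the rule names are not reported here. The comparison, the 30 gene lists and these rules were chosen with earlier results of these data known, and 4 further lists after the values were seen. Lists overlap, and received no set test.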

Additional observations from a re-analysis of the deposited data

Results flagged for a closer look

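ACTB, IFITM1 and ANKRD1 moved in opposite directions under the hairpins, both measured against the same 3 control libraries. ACTB, cytoplasmic actin, was called lower under sh45 (-0.25) and higher under sh43 (0.26), with a difference of sh45 minus sh43 of -0.51 on the log2 scale (edgeR, adjusted p = 1.94e-12). IFITM1, an interferon-induced membrane protein, was at 4.21, 3.41 and 3.02 CPM in controls, 7.13, 7.25 and 7.66 CPM under sh45 and 0.216, 0.0639 and 0.318 CPM under sh43, and the difference was 5.21 (edgeR, adjusted p = 5.07e-13). ANKRD1, a YAP target, was at 3.45, 2.54 and 4.39 CPM in controls, 1.57, 1.81 and 1.05 CPM under sh45 and 27.4, 26.4 and 29.6 CPM under sh43, and the difference was -4.24 (edgeR, adjusted p = 7.1e-17).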

How the results depend on the processing

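Under the alternatives run, the counts of genes called between sh45 and control stayed within 1.5 times the 7146 reported: 6434 with DESeq2 to 7263 with no filter, and 6350 (without sh45 replicate 3) to 7146 (without sh43 replicate 3) when 1 library was left out. Without 1 library, 3085 to 3528 genes rose, 3206 to 3705 fell, 957 to 1033 passed 2-fold and 8452 to 9413 were called between the hairpins, and ZHX2 changed by -2.08 to -1.98. Replicate numbers did not pair the samples: deviations of same-numbered libraries correlated at -0.065 to 0.039 (9 pairs) and of others at -0.076 to 0.088 (18 pairs). With the replicate block 6977 genes were called, of which 6934 were among the 7146 (97%). Removing trends on GC content and length called 7248 genes, and 5984 of the 7146 (83.7%) remained, the smallest share among the alternatives. Upper-quartile scaling turned the split to 52.8% of called genes higher. The 208 results of named genes were each refitted under the alternatives, and 3465 of these refitted values kept the same call. In 55 the call was lost, 37 of them on leaving out a library, in 8 a call was gained and none reversed. No median of the mitochondrial ribosomal RNA list exists without those genes. Depth limits genes near 0 counts, whose folds are given as ratios with intervals or as bounds.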

Other observations

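A larger share of tested genes fell on chromosome 10 than over all chromosomes, an observation made after the values were seen and not tested. The median log2 change of its 538 tested genes was -0.21, while the medians of the 22 other chromosomes lay between -0.08 and 0.08. The 3 sh45 libraries had medians of -0.18, -0.19 and -0.21 relative to the control mean, and under sh43 the median was -0.07. The median was negative in each of 7 windows of 20000000 bases along the chromosome, from -0.13 to -0.37. No DNA was measured in these libraries, and gene copy number was not tested.

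Of 793 long non-coding RNAs tested, 178 rose and 112 fell under sh45 (median 0.11), beside 25.3% and 27.3% of all genes. Of 270 transcribed pseudogenes 75 rose and 34 fell (median 0.15). The rises in both classes were thus near the share over all genes, and the falls were below it. Fewer genes were called in these classes, 36.6% and 40.4%, than the 52.6% of all genes. Protein-coding genes gave 3178 rises and 3563 falls among 12515 (median -0.01). Libraries without strand information cannot assign reads to antisense transcripts with certainty.

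Among replication-dependent histone genes, whose mRNAs lack a poly(A) tail in cycling cells, H2AC6 (-1.54), H2BC5 (-1.35) and H2BC12 (-1.03) fell. The other 4 of 7 tested were not called, where 27.3% of all genes fell. Several list members were below the filter and were not tested. CDH1, which encodes E-cadherin, had 31 counts over the 3 control libraries, 2 under sh45 and 2 under sh43. CCL20, a chemokine, had 0, 8 and 26 counts in the same order.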
